A study of Homo sapiens with 22 samples.

Results

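Accessible chromatin of KMS11 TKO cells was compared with that of KMS11 cells at day 0. The 4 ATAC-seq peak lists compared were replicates 1 and 2 of KMS11 TKO and replicates 1 and 2 of untreated KMS11, both sampled at day 0, out of 22 lists in the series. Peaks of these 4 lists on the 22 autosomes and X merged into 44856 regions, against 96160 regions for all 22 lists. KMS11 is a multiple myeloma line, labelled as bone marrow, that carries the t(4;14) translocation, which the labels give as the genotype of the day 0 group. The labels give "TKO" in its place for the other group and do not define it. In published work the name KMS11 TKO denotes a KMS11 derivative in which the translocated NSD2 allele was disrupted, and the sources used here do not say whether these cells were 1 clone. Neither group was treated. Other KMS11 libraries, used below for comparison, came from cells kept in DMSO (4 libraries) or in NSD2LDD (4 libraries), the agent the series used to degrade NSD2, at days 4 and 10.

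In t(4;14) myeloma, enhancers of the immunoglobulin heavy chain gene drive NSD2 and FGFR3. NSD2 is a histone methyltransferase that places H3K36me2, a mark spread over gene bodies and the space between genes, where it opposes H3K27me3, the mark of Polycomb silencing. ATAC-seq cuts open DNA with the Tn5 transposase, so peaks mark promoters, enhancers and other sites free of tightly packed nucleosomes.

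Sites far from genes were lost most often in TKO, while promoters were mostly kept. Of the regions called in both day 0 KMS11 libraries (22457), 2781 were called in neither TKO library, a share of 12.4%. These are termed lost. The reverse pattern, termed gained, was found in 1364 of 22771 regions that both TKO lists hold (5.99%). A region that was not called cannot be told apart from one too shallow to call, because the lists hold no read counts. In these bulk samples, fewer cells with an open site and less opening per cell cannot be told apart either. Another 17830 regions were called in all 4 libraries. With every list cut to its 24979 strongest peaks, the length of the shortest, 2441 regions were lost (12.2%) and 1935 gained (9.26%). The balance turned when TKO replicate 2 was left out (3338 lost and 5339 gained) or day 0 replicate 1 (3991 and 4780). It was 4121 lost and 3275 gained without TKO replicate 1, and 10053 and 1541 without day 0 replicate 2. Leaving out a library loosens the rule on its side, so these counts do not compare directly with those of all 4 libraries.

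**Figure D1:**
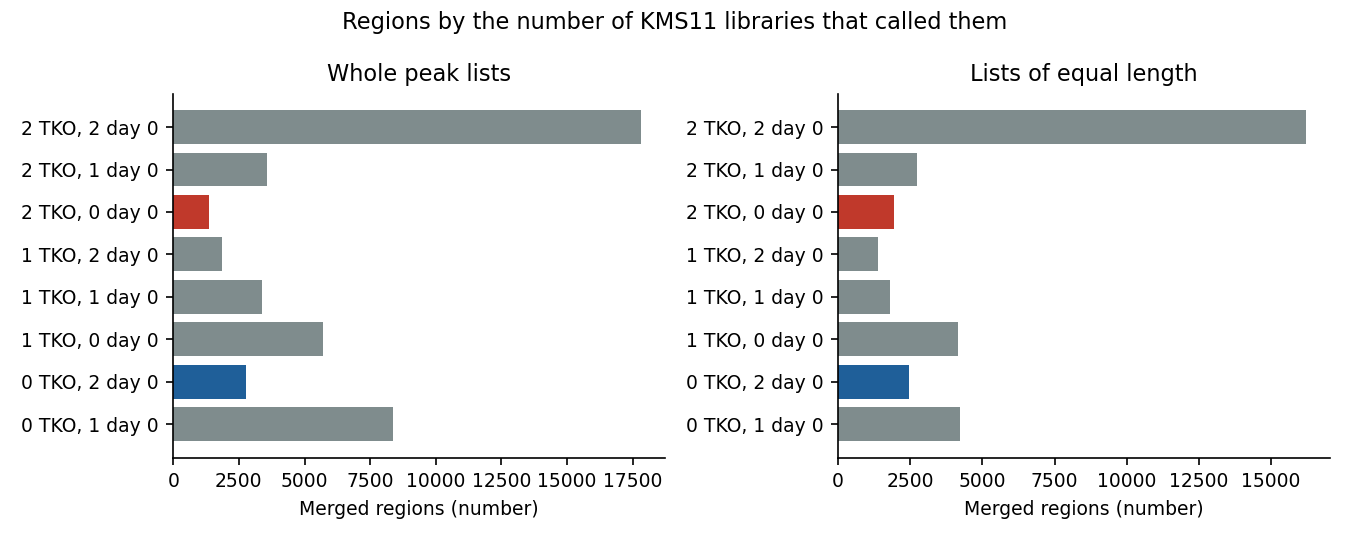
Number of merged regions (horizontal axis) by how many TKO and day 0 KMS11 libraries called them (rows), for the whole lists (left) and for lists of equal length (right). Red bars are gained regions (1364 and 1935), blue bars lost regions (2781 and 2441), and grey bars all other patterns, of which 17830 and 16220 regions were called in all 4 libraries.

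The lists of the 4 libraries differed in length by more within each group than the group means did (28793 ± 2695 peaks in TKO and 30946 ± 8439 in day 0 KMS11, SD, n = 2 each). TKO replicates 1 and 2 had 30699 and 26887 peaks, against 36913 and 24979 in day 0 KMS11. Peaks covered 19.3 and 13.3 Mb in TKO and 19.3 and 11.5 Mb in day 0 KMS11. The groups overlapped in both measures, and 2 libraries against 2 cannot give an exact permutation p under 0.333. The covered bases of the TKO replicates overlapped with a Jaccard index (shared over joined bases) of 0.567, those of the day 0 replicates with 0.509, and pairs across groups with 0.453 to 0.563. So a TKO and a day 0 library could be as alike as a pair of replicates. The list length runs from 24979 to 52518 peaks over all 22 libraries, and the narrowest called peak was 206 and 154 bp in TKO and 164 and 156 bp in day 0 KMS11. NSD2, with 5 kb either side, held peaks in each library. They covered 770 and 374 bp in TKO, against 458 and 494 bp in day 0 KMS11 and 908 to 1413 bp in DMSO, in a window that also takes in part of NELFA. Peaks show neither the protein nor an edit in the gene, so they do not test the TKO label.

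Plasma cell identity was visible in both groups. Of 12 plasma cell markers, the gene starts of 9 held peaks in all 4 libraries, among them IRF4, PRDM1 and XBP1 (transcription factors of the plasma cell), SDC1, which encodes the surface marker CD138, and TNFRSF17, the gene of the receptor BCMA. SLAMF7 and FKBP11 held none in any of the 4. Among 10 B cell markers, MS4A1, CD22 and FCER2 held none, and CIITA, BCL6, EBF1 and CR2 held peaks in all 4. None of the 4 libraries had a peak at 9 of 10 myeloid markers, 8 of 9 erythroid and megakaryocyte markers, 8 of 10 stromal and endothelial markers and 7 of 11 T and NK cell markers. Covered bases summed over the T and NK markers were 1.59 to 2.13 kb in TKO and 0.629 to 1.73 kb in day 0 KMS11. Over the plasma cell markers the sums were 6.25 to 7.66 kb in TKO and 4.48 to 6.47 kb in day 0 KMS11. For the B cell markers they were 2.71 to 3.09 and 2.38 to 3.56 kb, and for the erythroid and megakaryocyte markers 0 to 0.036 and 0.053 to 0.112 kb.

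Gene ends, taken as 1 kb either side of a protein-coding gene's start or finish, had the lowest shares of lost and gained regions. Of regions called in both day 0 libraries, 1.89% of those at gene ends were lost (174 of 9230), against 16.4% within bodies of protein-coding genes (1089 of 6652), 19.5% within genes of other types (440 of 2260) and 25.0% between genes (1078 of 4315). Gained shares were 1.49% at gene ends (144 of 9658), 9.59% in bodies, 7.84% in other genes and 9.61% between genes. Losses were thus most frequent between genes, while gains were about as frequent in gene bodies as between genes. At equal list length the gained share at gene ends was 3.51%, above the lost share of 1.88% there. Leaving out each library in turn gave gained shares of 1.79% to 8.61% at gene ends, 10.7% to 31.1% in bodies, 9.16% to 25.6% in other genes and 10.7% to 30.6% between genes, each highest without day 0 replicate 1. The lost shares were then 2.70% to 6.53%, 19.7% to 33.5%, 22.6% to 35.8% and 29.4% to 42.2%, each highest without day 0 replicate 2. Fewer libraries had to meet the rule in these omissions. Among gene ends, regions at a gene start were lost in 1.56% of 7510 cases and those only at a gene finish in 6.38% of 329. The gained shares were 0.952% and 8.71% at starts and finishes, for genes whose strand is known.

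The loss was lowest at gene ends and highest between genes in each of 5 classes of peak strength. Regions called in both libraries of a group were split into these equal classes by the rank of their peaks' -log10 q within each list. In the weakest class, 9.71% of gene-end regions and 36.8% of regions between genes were lost. In the strongest class, 1 of 2739 gene-end regions was lost (0.0365%), against 9.21% of those between genes (49 of 532) and 4.65% of those in gene bodies (40 of 860). Gains came from weak peaks: 20.8% of the weakest class of regions called in both TKO libraries were gained, and 0.022% of the strongest (1 of 4554). The loss share over all regions was 27.6% in the weakest class and 2.23% in the strongest (100 of 4492).

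**Figure D2:**
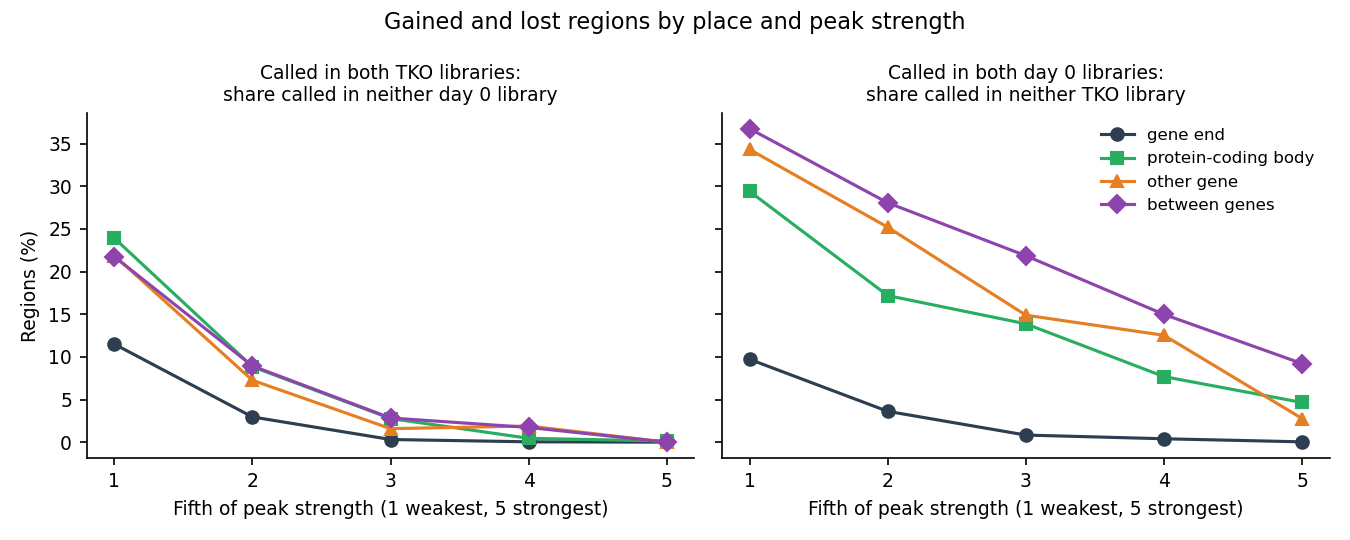
Share of regions gained in TKO (left) and lost in TKO (right), in percent, by class of peak strength from 1 (weakest) to 5 (strongest), with 1 line per place of the region. Between genes 9.21% of the strongest class was lost and at gene ends 0.0365%, while gains in the strongest class were at most 0.130%.

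Losses climbed with distance from protein-coding genes. They made up 7.90% of regions overlapping a gene, 10.7% of those under 10 kb away, 16.3% at 10 to 50 kb, 29.2% at 50 to 200 kb and 36.7% beyond 200 kb (536 of 1459). Gains ran from 4.76% in genes to 10.4% at 50 to 200 kb and were 7.59% beyond 200 kb. Their order depended on the lists: at equal length the highest share was 15.4%, under 10 kb away, and without day 0 replicate 1 the shares were 17.7% in genes, 32.0% under 10 kb away and 26.0% beyond 200 kb. The climb of losses from the first to the last distance was present without each library in turn: the share beyond 200 kb was 41.5% to 54.3%, against 9.72% to 20.9% in genes. Inside gene bodies, losses climbed with the length of the gene, from 7.66% in genes under 50 kb to 33.1% in genes over 500 kb (272 of 821). Gains were 9.93% in genes under 50 kb and 10.98% in those over 500 kb, and at equal list length 17.3% and 14.2%. These shares carry no test, since 2 libraries stand on each side.

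**Figure D3:**
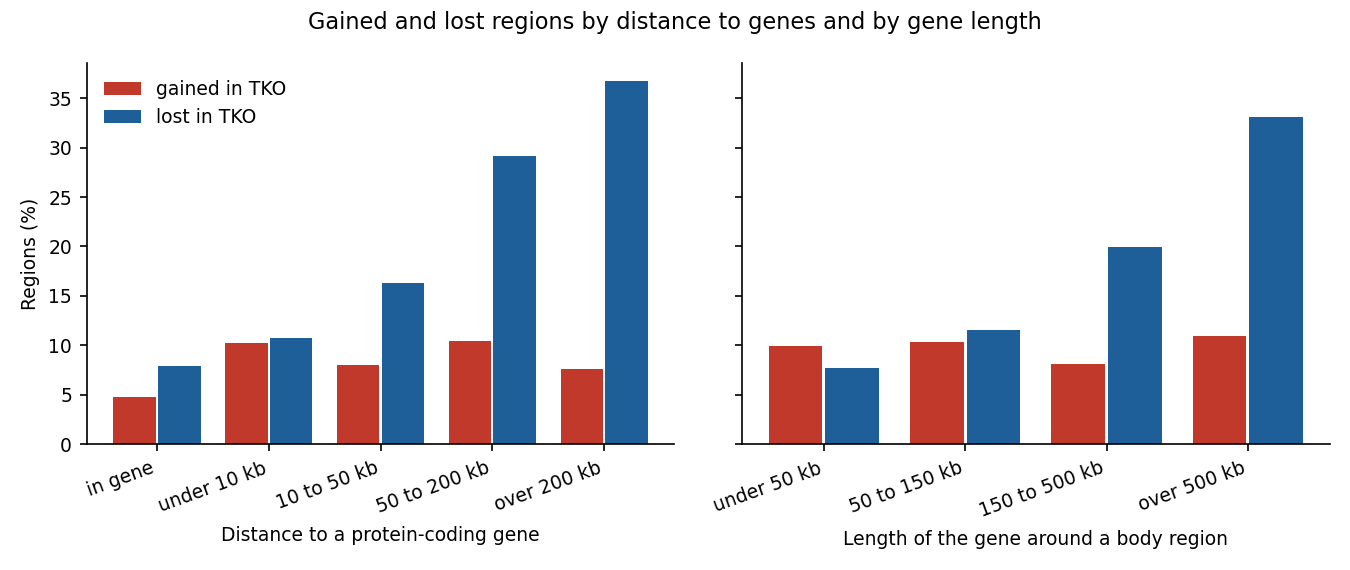
Share of regions (percent) gained (red) and lost (blue) in TKO, by distance to the nearest protein-coding gene (left) and, for regions in gene bodies, by the length of that gene (right). Lost shares rise to 36.7% and 33.1% in the last bars, and gained shares reach at most 10.4% and 10.98%.

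Regions lost in TKO were called in most other KMS11 libraries. Lost regions were chosen as called in both day 0 KMS11 libraries and gained ones as called in neither. A higher share of lost than of gained regions in other KMS11 libraries thus follows in part from that choice. Gained regions also had weaker peaks in their own group's lists (median rank 25.2%, counted from the weakest, against 39.1% for lost regions). Of the 2781 lost regions, 76.4% to 90.8% were called in each of the 4 DMSO libraries (median 87.2%) and 75.4% to 89.0% in each of the 4 NSD2LDD libraries (median 81.3%). Of the 1364 gained regions, 36.7% to 50.2% were called in the DMSO libraries (median 44.6%) and 41.6% to 61.6% in the NSD2LDD libraries (median 48.2%). In these 8 libraries, 52.9% of lost regions were called 8 times and 1.11% never (31 regions). Of gained regions, 12.4% were called in all 8 and 18.2% in none (248 regions). Regions called in all 4 libraries compared here were called in all 8 in 96.6% of cases. The DMSO lists are longer than most of the 4 compared here, at 34115 to 39002 peaks, and come from later days, so list length and day cannot be told apart from the absence of TKO in this comparison.

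Over protein-coding genes, each with 5 kb either side, limma tested the log2 of the bases covered by peaks plus 200 bp. Of 16738 genes, 559 were lower in TKO than in day 0 KMS11 (3.34%) and 226 higher (1.35%), together 4.69%, at a Benjamini-Hochberg adjusted p below 0.05. Before adjustment, 2691 genes fell below that value. Falls were more frequent in longer genes: 1.17% of genes under 50 kb were lower, 3.67% of those at 50 to 150 kb, 12.1% at 150 to 500 kb and 25.2% over 500 kb (79 of 314). Rises were 1.39%, 1.54%, 0.762% and 0.955% in the same length classes. Without day 0 replicate 1, higher genes outnumbered lower ones (794 and 473). Higher genes were 119 without day 0 replicate 2 and 94 without TKO replicate 1. A gene with no peak in any of the 4 libraries has a log2 difference of -0.14, which comes from the scaling of each library to its median over genes covered in all libraries.

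Most falls were also called against untreated and DMSO-treated KMS11 together, and most rises were not. That fit shares the TKO and day 0 libraries, so the overlap is a description. When TKO was fitted against day 0 and DMSO KMS11 together, 530 of the 559 lower genes (94.8%) were again called lower and 74 of the 226 higher genes (32.7%) again higher. At gene starts the numbers were 214 of 233 lower and 17 of 125 higher. For 127 of the 226 higher genes the mean covered length in TKO lay within the range of the DMSO libraries. It did so for 20 of the 559 lower genes and 9199 of all 16738. Unlike the fits, these lengths are not scaled to the library. Peaks covered 19.3 and 13.3 Mb in TKO and 17.9 to 26.7 Mb in DMSO. A gene can thus fall below or into the DMSO range through the smaller total alone.

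The 10 genes with the most lost regions spanned 122 to 2304 kb. ARHGAP24, which encodes a GTPase activator for RAC, lost 7 of its 9 regions called in both day 0 libraries. Its peaks covered 974 and 893 bp in TKO, against 5477 and 3418 bp in day 0 KMS11 and 4251 to 6729 bp in DMSO. The groups did not overlap (log2 difference -2.15 ± 0.20 SE, n = 2 each, limma adjusted p = 6.08e-06), and the call held under every alternative tried.

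LRRC4C, a synaptic adhesion gene, lost 6 of 9 such regions, with 1688 and 1500 bp covered in TKO and 5198 and 3561 bp in day 0 KMS11 (-1.48 ± 0.21, limma adjusted p = 0.000384). CNTNAP2, a neurexin family gene, lost 6 of 13 and had 4242 and 3848 bp in TKO, against 8912 and 6450 bp in day 0 KMS11 (-1.02 ± 0.17, limma adjusted p = 0.00173). PDE10A, a cyclic nucleotide phosphodiesterase gene, and ZMAT4, a zinc finger gene, each lost all 5, and no peak was left in either TKO library. In both genes every day 0 and DMSO library had peaks. For PDE10A these covered 3490 and 2284 bp in day 0 KMS11 and 2334 to 5356 bp in DMSO.

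Teneurins, large adhesion proteins of synapses, had losses in TENM1 (2533 and 1260 bp in TKO, against 4401 and 3124 bp in day 0 KMS11) and TENM2 (1152 and 995 bp in TKO, against 4583 and 2631 bp in day 0 KMS11), both called lower by limma. The call for TENM1 was lost without TKO replicate 2 (-0.83). SNX9, a membrane-bending protein gene, had no peak in either TKO library, against 1486 and 1214 bp in day 0 KMS11. AUTS2, a gene of neural development (5262 and 3682 bp in TKO, against 8384 and 5050 bp in day 0 KMS11), and DLG2, a synaptic scaffold gene (7526 and 4614 bp in TKO, against 8899 and 5968 bp in day 0 KMS11), lost 5 regions each. TKO and day 0 KMS11 overlapped in both, and neither gene passed the limma test over its whole length.

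Genes with the most gained regions gave smaller differences. GSE1, which encodes a subunit of a histone deacetylase complex, gained 4 regions. Its peaks covered 8378 and 4688 bp in TKO and 3093 and 585 bp in day 0 KMS11 (1.87 ± 0.38, limma adjusted p = 0.00812), against 2820 to 5526 bp in DMSO. The value was 1.07 without day 0 replicate 2, and the call was lost there and without TKO replicate 1. ICA1, an islet cell autoantigen gene, gained 3 regions and had 4819 and 3830 bp in TKO, against 2552 and 2234 bp in day 0 KMS11 and 2563 to 3183 bp in DMSO (0.65 ± 0.13, limma adjusted p = 0.00828, and 0.0563 without day 0 replicate 1), a call also lost with lists of equal length. ILDR1, a tricellular junction gene, had 2881 and 1255 bp in TKO and 557 and 225 bp in day 0 KMS11 (1.76 ± 0.35). That call was lost without day 0 replicate 2 or TKO replicate 1. NAV2, TENM3, DUSP22, TRAM2, ZBTB38, CADM1 and SHROOM3 gained 3 or 4 regions and did not pass the limma test over the whole gene.

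**Figure D4:**
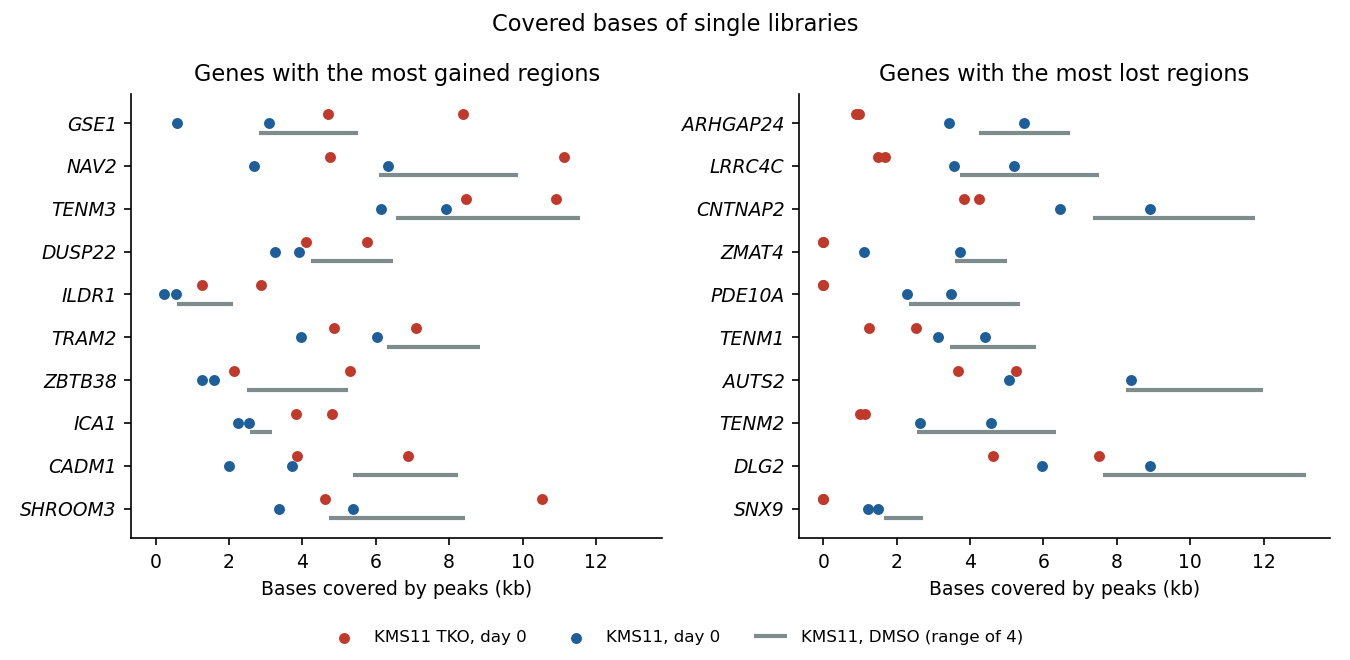
Bases covered by peaks (kb) in single libraries over the 10 genes with the most gained regions (left) and the 10 with the most lost regions (right), with TKO in red, day 0 KMS11 in blue and the range of the 4 DMSO libraries as a grey bar. In the lost genes TKO lies below the DMSO range in every gene, and among the gained genes ICA1 alone has both TKO libraries above it. Values are not scaled to the library, and the DMSO lists are longer than those of TKO.

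The genes that rose most included 2 with no peak in any other KMS11 library. LAIR1, an inhibitory receptor gene of immune cells, and PTPRS, a receptor phosphatase gene, had no peak in any day 0, DMSO or NSD2LDD KMS11 library. LAIR1 was covered by 2386 and 925 bp and PTPRS by 1729 and 500 bp in TKO replicates 1 and 2 (limma adjusted p = 0.00056 and 0.000529). The rise of LAIR1 held under every alternative tried, while PTPRS lost its call with peaks of -log10 q of 5 or more and with lists of equal length. ICAM1, a leukocyte adhesion receptor gene, and KDM6B, an H3K27 demethylase gene, differed from these in that DMSO libraries were covered too. ICAM1 had 2018 and 1086 bp in TKO and 371 and 304 bp in day 0 KMS11, but 1541 to 2668 bp in DMSO. KDM6B had 2521 and 1895 bp in TKO and 1292 and 558 bp in day 0 KMS11, but 3163 to 4633 bp in DMSO. Against day 0 and DMSO together their log2 differences were 0.48 and 0.03 and neither was called. Leaving out TKO replicate 1, or taking lists of equal length, ended the call of both, and for KDM6B so did leaving out day 0 replicate 2 or TKO replicate 2. The windows of both genes overlap neighbouring genes.

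Axon guidance and synaptic adhesion genes, and ion channel and transporter genes, had the highest shares of lower genes among the 22 lists examined. Of 40 axon guidance and synaptic adhesion genes, 14 were lower and 2 higher (median log2 difference -0.60, against -0.03 over all genes tested). The lower ones include PTPRO, a receptor phosphatase, SLIT3 and NTN4, secreted guidance cues, EPHB1, an ephrin receptor, and NRP1 and NRP2, the neuropilins. EPHB1 had 1590 and 978 bp in TKO and 4644 and 2356 bp in day 0 KMS11 (-1.42 ± 0.16, limma adjusted p = 5.21e-05). The higher ones were PTPRS and ROBO2. Of 39 ion channel and transporter genes, 14 were lower and 1, the calcium channel gene CACNA1A, was higher (median -0.76). Lower members include KCNMA1, a potassium channel gene, SLC4A4, a bicarbonate transporter gene, and CACNA2D1, a calcium channel subunit gene, which had 611 and 338 bp in TKO and 2005 and 1216 bp in day 0 KMS11. The median lengths of these lists' genes were 380 and 430 kb, in the range where 12.1% of all genes were lower and 0.762% higher. Without scaling, 5 and 7 members of the 2 lists were lower, and 2 and 1 higher. With lists of equal length, 8 of 40 axon guidance and synaptic adhesion genes were lower and 0 higher (median -0.55), and 9 of 38 ion channel and transporter genes lower and 2 higher (median -0.26). PTPRO, SLIT3, PTPRS and ROBO2 were not called there.

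The list tied to NSD2 and t(4;14) had 4 lower and 0 higher of 20 (median -0.27), and it was chosen with earlier results of these data known. Over all genes tested 3.34% were lower, and 3.67% of those of 50 to 150 kb, the class that holds the list's median length of 84.8 kb. At equal list length 3 members were lower, and CDH2 was no longer called. RRAS2, a RAS family gene, had no peak in either TKO library, against 747 and 562 bp in day 0 KMS11 and 925 to 1644 bp in DMSO. PAK1, a kinase gene downstream of RAC, had 911 and 431 bp in TKO and 2785 and 1065 bp in day 0 KMS11 (-1.36 ± 0.24, limma adjusted p = 0.003). PTPN13, a phosphatase gene, and CDH2, the N-cadherin gene, had log2 differences of -0.76 and -0.98. Their calls were lost without day 0 replicate 2, PTPN13 also without TKO replicate 2, and CDH2 also without day 0 replicate 1 or TKO replicate 1 (-0.42). NSD2, FGFR3, MYC, IRF4 and MAF had log2 differences of -0.00, 0.03, 0.08, 0.51 and 0.24 and were not called. The cyclin D2 gene CCND2 was covered by 828 and 559 bp in TKO, against 1115 and 906 bp in day 0 KMS11 and 1124 to 1594 bp in DMSO (-0.59 ± 0.17, limma adjusted p = 0.0575).

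In cyclic nucleotide signalling, 4 of 33 genes were lower (PDE10A, PDE1C, CREB5 and PRKACB) and 2 higher (ADCY7, an adenylyl cyclase gene, and PRKAR1A, a regulatory subunit gene of protein kinase A). Over all genes tested 3.34% were lower and 1.35% higher. Among genes of 150 to 500 kb, the class that holds the list's median length of 159 kb, 12.1% were lower and 0.762% higher. No member was called higher with lists of equal length (5 of 32 lower), without scaling (2 of 33 lower) or against day 0 and DMSO together (6 of 33 lower). CREB5, a CREB family gene, had 1548 and 400 bp in TKO and 4188 and 2219 bp in day 0 KMS11 (-1.81 ± 0.30, limma adjusted p = 0.00171). The call for PRKACB, a catalytic subunit gene of protein kinase A, was lost without day 0 replicate 1 and without either TKO replicate. Cell adhesion and matrix genes were 4 lower and 3 higher of 31, and developmental regulators 5 lower and 1 higher of 54. With lists of equal length the adhesion genes were 3 lower and 2 higher of 31. The developmental regulators were then 1 lower and 2 higher of 45. SOX5, a SOX family gene, had no peak in either TKO library and 1936 and 965 bp in day 0 KMS11, against 1719 to 2793 bp in DMSO. GATA6, FOXA1 and MEIS2 were among the other lower regulators, and the starts of these and of SOX5 were lower too. TBX2 was the 1 that was higher. GATA6 was not called with a stricter q or with lists of equal length, and TBX2 was not called against day 0 and DMSO together.

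Interferon response genes were 3 lower and 0 higher of 31, namely RSAD2, MX1 and IFI44L, and B cell genes 2 lower and 0 higher of 16, namely BCL11A and EBF1. Over all genes tested 3.34% were lower and 1.35% higher, together 4.69%. With lists of equal length no member of the interferon response or B cell list was called (of 28 and 15 tested). All but RSAD2 of these 5 also lost the call in 2 or 3 of the 4 omissions of a library, and BCL11A was -0.63 without TKO replicate 2. RAS and MAPK signalling had 1 lower (SPRY2) and 0 higher of 28, and SPRY2 was -0.59 and not called without day 0 replicate 2. No gene was lower and 1 was higher in NF-kappaB (ICAM1, of 22), the H3K36 and H3K27 methylation enzymes (KDM6B, of 32), housekeeping (POLR2A, of 30), the T and NK markers (TCF7, of 13) and the stromal and endothelial markers (COL1A1, of 12). Cell cycle genes were 0 lower and 2 higher of 30 (DBF4B and CCND1). None of the 20 plasma cell genes, 23 antigen presentation genes, 21 myeloma surface antigen and cereblon pathway genes, 23 apoptosis genes, 25 genes of ER secretion and the unfolded protein response, 10 myeloid markers and 8 erythroid and megakaryocyte markers was called in either direction by limma. With 4.69% of all genes tested called in either direction, few calls or none are to be expected in lists of this length. A list without a call thus does not set its genes apart. All of the calls named in the NF-kappaB, housekeeping, methylation, cell cycle, T and NK and stromal lists were lost when 1 or more of the 4 libraries was left out.

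At gene starts (1 kb either side, both ends where the strand is unknown), 233 of 12771 were lower in TKO (1.82%) and 125 higher (0.979%), together 2.8%, and 1915 had an unadjusted p below 0.05. Without day 0 replicate 1 these became 373 lower and 965 higher. The lower starts with the biggest differences were empty in both TKO libraries and held a peak in every day 0 and DMSO library. HUNK, a protein kinase gene, had 941 and 1042 bp in day 0 KMS11 and 1169 to 1421 bp in DMSO. GRB14, an adaptor gene of insulin receptor signalling, had 1030 and 769 bp in day 0 KMS11 and 959 to 1031 bp in DMSO. TENM4, a teneurin gene, had 1145 and 671 bp in day 0 KMS11 and 1119 to 1161 bp in DMSO. The same pattern held for ADARB2, PLXDC2, CTNND2, SERTAD4, PLOD2, a collagen hydroxylase gene, GBP6 and SGMS2, a sphingomyelin synthase gene. GBP6 lost its call when any 1 of the 4 libraries was left out.

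The starts that were higher in TKO differed in their DMSO values. CDC42SE2, which encodes a small effector of CDC42, and SH2D2A, a T cell adaptor gene, had peaks in both TKO libraries (715 and 715 bp, and 684 and 396 bp) and in no day 0 or DMSO library. SHROOM3, an actin regulator gene, was close to this, with 1061 and 346 bp in TKO, none in day 0 KMS11 and 0 to 243 bp in DMSO. In the NSD2LDD libraries the start of CDC42SE2 had 0 to 695 bp, that of SHROOM3 0 to 348 bp and that of SH2D2A none. The starts of UMODL1 (1004 and 735 bp in TKO), ICAM1 (1145 and 418 bp), JAG2, a Notch ligand gene (517 and 464 bp), XYLT1, a xylosyltransferase gene (614 and 567 bp), and DDN (1040 and 366 bp) were also empty in day 0 KMS11 but held peaks in every DMSO library. The call of CDC42SE2 was lost without TKO replicate 2. SYNDIG1 lost its call when any 1 library was left out. With lists of equal length, 6 of the 18 named starts that could be tested kept their call. The 12 that lost it were HUNK, TENM4, PLXDC2, CTNND2, SERTAD4, GBP6 and SGMS2 among the lower starts and UMODL1, ICAM1, DDN, XYLT1 and JAG2 among the higher ones.

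The 250 bases before the gene start are shown for 3 starts lost and 3 gained in TKO, so that their base content can be compared. They are from RefSeq on GRCh38 (hg38), 5′ to 3′ on the strand of the gene, and capitals mark matches to a set of motifs on either strand. The GC box was searched as GGGCGG and the CCAAT box by its name. The E-box was searched as CACGTG and the TATA box as TATAAA. The letters for AP-1 sites were TGANTCA. The letters for CRE sites were TGACGTCA. The letters for ETS sites were CCGGAAGT. No motif contains another, and the share of all promoter windows that hold each is given below.
HUNK (chr21:31872770-31873019, plus strand): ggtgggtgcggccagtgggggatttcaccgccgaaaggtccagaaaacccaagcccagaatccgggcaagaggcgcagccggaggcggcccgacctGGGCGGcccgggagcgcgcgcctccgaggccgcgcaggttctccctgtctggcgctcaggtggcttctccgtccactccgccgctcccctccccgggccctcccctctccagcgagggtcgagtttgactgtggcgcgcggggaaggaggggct
GRB14 (chr2:164621483-164621732, minus strand): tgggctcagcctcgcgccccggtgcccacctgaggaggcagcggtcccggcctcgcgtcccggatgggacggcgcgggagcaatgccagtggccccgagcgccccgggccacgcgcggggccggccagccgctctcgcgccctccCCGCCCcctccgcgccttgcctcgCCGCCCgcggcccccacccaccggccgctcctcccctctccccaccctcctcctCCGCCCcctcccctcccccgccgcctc
TENM4 (chr11:79441031-79441280, minus strand): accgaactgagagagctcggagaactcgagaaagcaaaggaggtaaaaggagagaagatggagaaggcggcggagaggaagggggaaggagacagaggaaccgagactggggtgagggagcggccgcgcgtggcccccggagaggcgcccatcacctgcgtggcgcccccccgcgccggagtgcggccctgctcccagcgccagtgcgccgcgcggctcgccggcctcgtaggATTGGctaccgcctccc
UMODL1 (chr21:42062627-42062876, plus strand): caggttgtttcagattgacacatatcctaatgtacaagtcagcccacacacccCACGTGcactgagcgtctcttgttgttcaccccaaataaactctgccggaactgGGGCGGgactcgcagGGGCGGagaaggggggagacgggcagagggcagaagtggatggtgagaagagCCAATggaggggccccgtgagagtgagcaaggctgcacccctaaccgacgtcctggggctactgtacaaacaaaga
ICAM1 (chr19:10270870-10271119, plus strand): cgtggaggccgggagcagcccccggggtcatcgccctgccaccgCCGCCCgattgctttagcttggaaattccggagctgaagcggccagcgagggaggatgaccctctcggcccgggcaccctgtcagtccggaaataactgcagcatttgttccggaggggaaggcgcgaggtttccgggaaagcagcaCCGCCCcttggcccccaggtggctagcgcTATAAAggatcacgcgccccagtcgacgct
SHROOM3 (chr4:76434979-76435228, plus strand): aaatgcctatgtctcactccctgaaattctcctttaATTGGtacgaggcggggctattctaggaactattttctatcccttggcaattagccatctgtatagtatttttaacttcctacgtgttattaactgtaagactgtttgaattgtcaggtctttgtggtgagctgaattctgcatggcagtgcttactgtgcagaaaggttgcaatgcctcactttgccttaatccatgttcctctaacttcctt
The lost set has 72.4%, 82.0% and 69.2% G and C, and the gained set 57.2%, 66.0% and 40.8%. SHROOM3 has 3 CpG in this stretch, UMODL1 10 and ICAM1 23, against 26, 33 and 27 in HUNK, GRB14 and TENM4.

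Across RefSeq promoter windows of protein-coding genes (22132 windows of 15812 genes, from 250 bases before to 50 after a start), 160 of the 10064 called in both day 0 libraries were lost (1.59%) and 134 of the 10586 called in both TKO libraries gained (1.27%). The median G and C content of the 250 bases was 67.4% in lost windows, 64.2% in gained ones, 66.8% in those called in all 4 libraries (9659) and 62.0% in all windows. Lost promoters had as many CpG as those called in all 4 libraries (median 23 in each), and gained ones fewer (17.5). The ETS sequence CCGGAAGT was in none of the 160 lost windows, which allows a share of up to 1.88% (counting error only), and in 1.49% of gained windows, 8.72% of those called in all 4 and 4.41% of all windows. TATAAA was in 10.6% of lost, 3.73% of gained, 3.75% of all-4 and 8.996% of all windows. GGGCGG was in 68.8%, 56.7%, 74.4% and 53.7%, CCAAT in 26.9%, 26.1%, 36.6% and 32.7% and TGANTCA in 6.25%, 5.22%, 2.68% and 5.35%, in the same order. TGACGTCA was in 2.50%, 1.49%, 3.36% and 2.02% and CACGTG in 8.13%, 11.2%, 9.54% and 7.37%. A match is a run of letters and not a bound site.

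Single regions were tested in the same way. Of 69191 regions called in at least 2 of the 22 libraries, 2146 were lower in TKO (3.1%) and 669 higher (0.967%), together 4.07%, and 8305 had an unadjusted p below 0.05. Without day 0 replicate 1 there were 1840 lower and 2149 higher, and without TKO replicate 1 there were 282 higher. Gene ends held 12.6% of the lower and 23.2% of the higher regions, against 18.4% of those tested. Among the largest falls was a gene-end region of PPP1R9A (chr7:94907356-94908912), a gene for an actin-binding synaptic protein, which was empty in TKO and covered by 1074 and 1111 bp in day 0 KMS11. One in the body of FABP7, a fatty acid binding protein gene (chr6:122752460-122754037), was empty in TKO, against 1226 and 1015 bp in day 0 KMS11. Among the largest rises, a region in the body of MOXD1 (chr6:132354400-132355487) had 1037 and 600 bp in TKO and none in any day 0 or DMSO library. The same held for a region 19199 bp from EOLA2 (chrX:149909284-149910332), with 1002 and 593 bp in TKO. In the NSD2LDD libraries the MOXD1 region was covered by 0 to 251 bp and the EOLA2 region by 0 to 695 bp. A region in PRKD2, a protein kinase D gene (chr19:46713794-46714826), had 922 and 655 bp in TKO and none in day 0 KMS11, but 444 to 960 bp in DMSO. With lists of equal length the regions in FABP7 and PRKD2 were no longer called.

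Most lost and gained regions stood alone or in pairs, and some lay in runs. A run is a stretch of neighbouring regions, each called in both libraries of a group, that were all lost or all gained. Of the 2781 lost regions, 725 lay in 200 runs of 3 or more, and of the 1364 gained regions, 56 lay in 16 such runs. The lost share of all regions was also the higher one, and the difference in runs was not tested against it. The longest held 13 lost regions on chromosome 8 (chr8:109953873-115428053, 5474 kb) around CSMD3, a large gene expressed in brain, and TRPS1, a GATA-type repressor gene. In this stretch TKO replicates 1 and 2 had 3 and 5 peaks, against 23 and 16 in day 0 KMS11. Runs of 8 lay at CTNND2, the delta-catenin gene (chr5:11252247-12846201, 0 and 1 peaks in TKO, 11 and 9 in day 0 KMS11), between TMEM182 and POU3F3, a neural POU factor gene (chr2:103276924-104606511, 0 and 0 in TKO, 12 and 8 in day 0 KMS11), and at DKK2, a WNT inhibitor gene (chr4:106569445-107478820, 0 and 1 in TKO, 13 and 8 in day 0 KMS11). A run of 6 around BRINP1 on chromosome 9 (chr9:117825839-120109614) had no peak in TKO and 9 in each day 0 library.

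The longest gained run held 6 regions between RXRA, a retinoid receptor gene, and OLFM1 (chr9:134449586-135282615), with 8 and 6 peaks in TKO and none in day 0 KMS11. A run of 5 lay at KIAA0513 and GSE1 (chr16:85086729-85449231, 9 and 5 peaks in TKO, 1 and 0 in day 0 KMS11). Runs of 4 had as nearest genes ARHGEF28 on chromosome 5, BAHCC1 on chromosome 17 and LAIR1 (chr19:54351465-54388811, 6 and 4 peaks in TKO, 0 and 0 in day 0 KMS11).

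In windows of 5 Mb, covered bases were set against each library's median over the windows, so falls and rises are relative to it. Of 594 windows, 109 were lower in TKO (18.4%) and 104 higher (17.5%), together 35.9%, and 272 had an unadjusted p below 0.05. Without day 0 replicate 2 these fell to 49 and 28, and without TKO replicate 1 to 46 and 28. Lower windows held a median of 16 protein-coding genes and higher windows 50.5, against 25 over all windows tested. The biggest fall by log2 difference was on chromosome 4 at 30 to 35 Mb, which holds 2 protein-coding genes. Peaks covered 900 and 1521 bp there in TKO, against 8376 and 4080 bp in day 0 KMS11 and 5464 to 9600 bp in DMSO (log2 difference -1.67 ± 0.26, limma adjusted p = 0.000177). On chromosome 14 at 25 to 30 Mb it was 597 and 832 bp in TKO and 5805 and 2383 bp in day 0 KMS11 (-1.50 ± 0.23), a call lost with lists of equal length. The other large falls were on chromosome 8 at 110 to 115 Mb (-1.18), chromosome 9 at 115 to 120 Mb (-1.12) and chromosome 13 at 65 to 70 Mb (-1.07), and all 5 held against day 0 and DMSO together.

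Of the 5 largest rises, 3 lay on chromosome 17. At 5 to 10 Mb, with 130 protein-coding genes, peaks covered 37137 and 22759 bp in TKO and 24178 and 10243 bp in day 0 KMS11 (0.83 ± 0.15), but 41307 to 55774 bp in DMSO, and against day 0 and DMSO together the difference was 0.13 and not called. The 2 windows from 75 to 85 Mb rose by 0.66 and 0.73 and held in that fit, as did those on chromosome 16 at 85 to 90 Mb (0.62) and chromosome 21 at 45 to 50 Mb (0.63). Without TKO replicate 1 the calls at 75 to 80 Mb on chromosome 17 and on chromosome 21 were lost.

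Over whole chromosomes, 7 of 23 took a lower share of the covered bases in TKO (30.4%) and 6 a higher one (26.1%), together 56.5%, and 14 had an unadjusted p below 0.05. The higher ones were 11, 15, 16, 17, 19 and 20, and the lower ones 2, 4, 5, 8, 9, 12 and 18. Chromosome 12, whose call had the smallest p, held 4.66% and 4.68% of the covered bases in TKO, against 5.21% and 5.26% in day 0 KMS11 and 5.04% to 5.19% in DMSO (log2 difference -0.165 ± 0.024, limma adjusted p = 0.0002). It was also lower at gene ends alone (-0.105) and away from them (-0.245). Chromosome 17 held 4.42% and 3.81% in TKO and 3.28% and 3.21% in day 0 KMS11 (0.34 ± 0.087), but 3.70% to 4.38% in DMSO. Chromosome 16 held 3.77% and 3.73% in TKO, 3.23% and 3.27% in day 0 KMS11 and 3.17% to 3.70% in DMSO. Against day 0 and DMSO together, 8, 9, 12 and 18 were lower and 15 and 16 higher. Without day 0 replicate 2, or without TKO replicate 1, fewer chromosomes were called lower and no chromosome was called higher. Without day 0 replicate 1, fewer chromosomes were called in each direction, and rises remained. With replicate number as a block, 5 were lower and 3 higher.

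**Figure D5:**
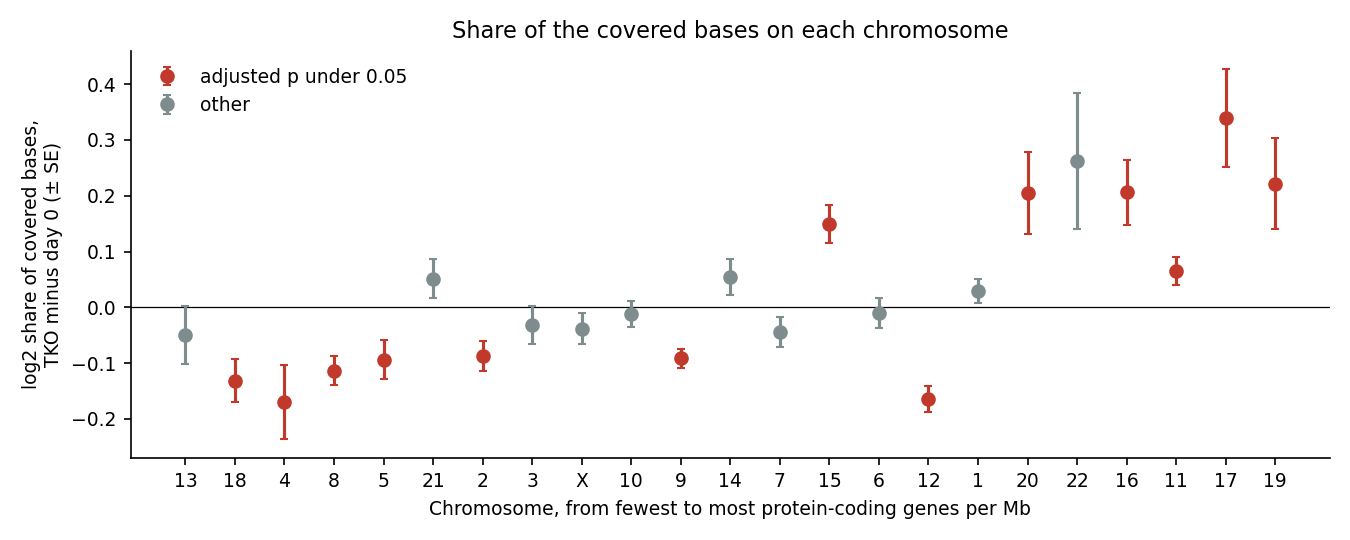
Difference in the share of covered bases on each chromosome, TKO minus day 0 KMS11 (log2, points with SE), with chromosomes in order of protein-coding genes per Mb. Red points passed limma's adjusted p of 0.05. Chromosome 17 stands highest (0.34) and chromosomes 4 and 12 lowest (-0.17 and -0.165).

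The shares followed gene density. Across the 23 chromosomes, which share the same libraries, the log2 difference had a Spearman correlation of 0.77 and a Pearson r of 0.65 with protein-coding genes per Mb, given as a description. Lost shares ran from 2.13% on chromosome 19 (19 of 893) to 20.3% on chromosome 4 (256 of 1263), and gained shares from 4.11% on chromosome 12 to 9.58% on chromosome 17 (94 of 981). The Spearman correlation with gene density was -0.80 for the lost share and 0.45 for the gained share. For regions away from gene ends alone it was -0.67 and 0.57.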

How the data were processed

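ATAC-seq peak lists of 22 libraries of the myeloma lines KMS11 and KMS34 were used as deposited. Per the submitters' processing notes, fastp, BWA, SAMtools, Picard, MACS3 and deepTools were used with hg38, with no versions stated in the sources used here. Each peak carries the authors' −log10 q (used to rank and filter peaks within a list), −log10 p, a score and a fold enrichment ratio, as deposited. Each library has its own list. The depth of the libraries is unknown, since the lists hold no reads, which limits what an uncalled peak can show.

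Covered bases were computed per merged region, gene (5 kb either side), gene start (1 kb either side), 5 Mb window and chromosome. Gene positions and names came from the RefSeq GRCh38.p14 table, which gives the strand of 15813 of 19974 protein-coding genes. For the other genes both ends were used. Log2 was taken of the covered bases plus 100 (regions, starts), 200 (genes) or 1000 bp (windows). It was scaled per library by its median over features covered in all libraries. Covered lengths given in bp or kb are not scaled. limma 3.58.1 in R 4.3.3 was fitted over all 22 libraries with 1 mean per group, and p-values were adjusted by Benjamini-Hochberg over all features (0.05). Windows were tested only where covered in all 22 libraries, and chromosomes were tested as shares of the covered bases. Other steps used Python 3.11.15 with scipy 1.17.1, numpy 2.4.6, matplotlib 3.10.9 and pandas 2.3.3, and bedtools 2.31.1. Of the fits, only that of genes was tested on simulated data, for genes covered in all 22 libraries. Features that are empty in a group were not part of that test. The labels do not state that duplicates were separate cultures, so the spread behind the p-values may be technical. The members, gene lists and tests were chosen with earlier results of these data known. Named genes were the 15 largest falls and rises among called genes (10 for starts, 8 for regions, 5 for windows), the 10 with the most lost and the 10 with the most gained regions, up to 4 called members of each list by smallest p, and MYC, MAF, IRF4, CCND2, FGFR3 and NSD2. A few genes are not reported here. The text describes part of the rest, and names a few other list members that were chosen after their values were seen. Alternatives were a stricter q, lists of equal length, other scalings, added bases, windows and reference libraries, and leaving out each library.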

Additional observations from a re-analysis of the deposited data

How the results depend on the processing

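Leaving out each library in turn gave 1818 to 2079 lower and 282 to 2149 higher regions, 427 to 491 and 94 to 794 genes, 221 to 373 and 88 to 965 gene starts, 46 to 110 and 28 to 116 windows, and 3 to 7 and 0 to 5 chromosomes. It gave 3338 to 10053 lost and 1541 to 5339 gained regions, since fewer libraries then had to meet the rule. Without scaling, 164 genes were lower and 45 higher, and 107 starts lower and 71 higher. With more bases added, 366 genes were lower and 99 higher, and with 50 kb either side 920 and 450. Higher calls were 379 genes and 204 starts with peak number as a covariate, and 1112 regions and 81 starts after quantile normalization. With KMS11 libraries alone, 343 regions, 127 genes and 43 starts were higher and 133 starts lower. Lists of equal length gave 118 lower starts. Against day 0 and DMSO together, 138 genes and 39 starts were higher, 396 starts lower, and 4 chromosomes lower and 2 higher. Gene ends alone gave 3 lower chromosomes. The cause of these shifts was not tested. Whether replicate numbers pair the samples cannot be told from 2 pairs. The replicate 1 minus replicate 2 differences of TKO and day 0 KMS11 had r = 0.116 across 69191 regions. With the replicate block, 2018 regions were lower and 628 higher, 514 and 199 genes, 223 and 113 starts, 94 and 84 windows, and 5 and 3 chromosomes. The sign turned for uncalled genes: NSD2 was 0.85 with -log10 q of at least 5, 0.62 at equal length, 0.14 without scaling, 0.030 after quantile normalization, 0.023 with the covariate, -0.28 to 0.27 without each library, 0.13 with 50 kb and 0.48 for its body. TRAM2 was -0.013 and -0.022 at the stricter q and at equal length. MYC was -0.016 at equal length, -0.0043 to 0.17 without each library and -0.083 with 50 kb. MAF was -0.11 at equal length and against day 0 and DMSO. FGFR3 was -0.036 with fewer bases added, -0.15 against day 0 and DMSO and -0.69 to 0.74 without each library. Among called genes, LRRC26 was -0.12 for its body alone. Of the genes named, 20 of 67 called ones kept their call under all alternatives and 41 under each omission of a library. For starts this was 4 and 16 of 20, for regions 7 and 14 of 16 and for windows 6 and 8 of 10.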
